A study of Homo sapiens with 12 samples.

Results

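The genes described here are 10 targets and regulators of bone morphogenetic protein (BMP) signalling: ID1, ID2, ID3, ID4, SMAD6, SMAD7, SMAD9, BAMBI, SKIL and BMPR2. They were chosen by symbol, for their known place in the pathway, with earlier results of these data known. They are 10 of the 55771 gene rows of the deposited table. Each symbol matched 1 row, and all 10 rows were among the 20454 genes with values high enough to test. They were followed by RNA-seq in KELLY, an established human neuroblastoma cell line with amplified MYCN, given 1 of 3 oligonucleotides.

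The groups were BPS1, BPS2 and control, with 4 libraries each. Every group, control included, received a custom morpholino (an uncharged antisense oligonucleotide) paired with a DNA leash and carried in by lipid, at 50 nM. Cells grew for 24 h in 10% serum, were moved to 4% serum for the transfection, and were lysed 48 h later. A single cell line was used, and the sources used here do not state the oligonucleotide sequences. The series text frames the experiment around raised levels of the long NEAT1 transcript, NEAT1_2, and of paraspeckles, the nuclear bodies built on it. Whether each library is its own culture is not stated in the labels, so the p-values speak to the spread among these libraries, which may be technical. Columns were tied to BPS2 through sample titles, because another label of those samples reads KPAS.

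BMPs bind a complex of type I and type II receptors, which phosphorylates the receptor-activated SMADs (SMAD1, SMAD5 and SMAD9). These join SMAD4, enter the nucleus and switch on a small set of direct targets. Among the best known are the ID genes, whose products hold back the basic helix-loop-helix (bHLH) factors of lineage differentiation, and the feedback inhibitors SMAD6, SMAD7 and BAMBI. In development, BMPs from the dorsal aorta direct neural crest cells toward the sympathetic and adrenal lineage in which neuroblastoma arises.

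The promoters of ID1, SMAD6 and BAMBI are shown because these genes had the largest changes with both oligonucleotides. Each sequence is the 250 bases before the gene's start in RefSeq (GRCh38.p14), on the plus strand, and capitals mark the motifs searched. RefSeq's starts can differ from the gene positions given for each gene, which are those of GENCODE release 29. Most of the BAMBI window lies inside the GENCODE gene, which starts at 28677342. The ID2 window, which ends at 8682055, lies wholly inside a gene that starts at 8678845. Distances below are from the RefSeq start. All 3 windows are rich in G and C (66.0% in ID1, 68.0% in SMAD6 and 81.2% in BAMBI).
ID1, chr20:31605039-31605288: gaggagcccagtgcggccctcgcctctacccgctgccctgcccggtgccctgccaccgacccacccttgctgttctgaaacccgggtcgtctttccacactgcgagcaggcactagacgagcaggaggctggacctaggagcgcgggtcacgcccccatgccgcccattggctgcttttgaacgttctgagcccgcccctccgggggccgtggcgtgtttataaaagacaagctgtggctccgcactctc
SMAD6, chr15:66701986-66702235: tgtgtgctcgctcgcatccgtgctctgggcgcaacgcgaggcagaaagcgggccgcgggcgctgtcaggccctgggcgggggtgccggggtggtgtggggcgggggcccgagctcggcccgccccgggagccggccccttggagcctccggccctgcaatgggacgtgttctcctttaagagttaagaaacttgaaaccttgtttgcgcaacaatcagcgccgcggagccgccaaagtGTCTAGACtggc
BAMBI, chr10:28677271-28677520: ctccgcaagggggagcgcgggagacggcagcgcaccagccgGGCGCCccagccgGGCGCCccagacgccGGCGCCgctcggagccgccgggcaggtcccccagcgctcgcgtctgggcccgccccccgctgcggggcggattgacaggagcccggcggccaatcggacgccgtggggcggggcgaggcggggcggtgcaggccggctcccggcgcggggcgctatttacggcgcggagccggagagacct
The motifs, searched on both strands, were GGCGCC, a GC-rich element that BMP-responsive SMADs bind, the palindromic SMAD-binding element GTCTAGAC, the cyclic AMP response element TGACGTCA, and a bipartite element of GGCGCC with GTCT starting 5 bases after its end. BAMBI held GGCGCC at 3 places, which began 209, 196 and 181 bases before the start. SMAD6 held GTCTAGAC 12 bases before the start. No motif lay in the windows of ID1, ID2, ID3, ID4, SMAD7 or SMAD9. Among the other members, SKIL held GGCGCC and TGACGTCA and BMPR2 held GGCGCC. The bipartite element was in none of the 12 promoter windows of the 10 genes. Of 35116 RefSeq promoters, 16.4% held GGCGCC (37.0% of the 11387 with at least 65% G and C), 0.182% held GTCTAGAC, 1.65% TGACGTCA and 0.0769% the bipartite element. These matches describe letters within this window and no more.

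Values are the authors' normalized counts, and the quotient of each library's total and its value of 1 read was 29.1 to 31.8 M, an estimate of depth. A single limma fit to log2(value + 1) over the 12 libraries gave the tests, and a gene was called where its Benjamini-Hochberg adjusted p, over all genes tested, was under 0.05. BPS1 replicate 4 and control replicate 1 stood apart. Measured as the SD, across genes, of a library's log2 distance to each gene's median, they stood at 0.594 and 0.471, against 0.377 to 0.425 elsewhere. The row of NEAT1, the RNA the series is about, fell with both oligonucleotides. It averaged 2024 ± 420.4 in BPS1, 4262 ± 412 in BPS2 and 6879 ± 264 in control (SD, n = 4 each), and it does not separate NEAT1_2 from the short transcript. The log2 fold change was -1.79 ± 0.13 with BPS1 (limma adjusted p = 6.00e-06) and -0.69 ± 0.13 with BPS2 (adjusted p = 0.0239, a call lost on omission of any of 7 single libraries). An exact two-sided permutation test gave p = 0.0286 in both comparisons, the smallest its 70 arrangements allow.

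With BPS1, 8 of the 10 genes were called against control, all 8 higher: ID1, ID2, ID3, ID4, SMAD6, SMAD7, BAMBI and SKIL. Over all genes tested, 8.60% were called in that comparison and 4.29% were called higher. Because the members were chosen with earlier results known, the shares given here are a description and not a test of the set. In these 8 genes every BPS1 library exceeded every control library, as in 7.50% of all genes. With BPS2, 5 of the 10 were called, all 5 higher: ID1, ID2, ID4, SMAD6 and BAMBI. The share of all genes called there was 1.21%, and 0.821% were called higher. Every BPS2 library exceeded every control library for 7 members, these 5 and ID3 and SMAD7, as for 5.41% of all genes. The 5 genes of BPS2 were also called with BPS1, as were 118 of all genes tested (0.577%), and both comparisons use the same control libraries. SMAD9 and BMPR2 were called in neither. In the direct comparison of BPS2 with BPS1, 2 of the 10, SMAD6 and BAMBI, were called, both lower in BPS2, where 3.93% of all genes were called and 1.63% were called lower. The median log2 fold change of the 10 genes was 0.60 with BPS1 and 0.51 with BPS2, beside medians of -0.00036 and 0.0025 over all genes tested. In bulk RNA, fewer cells of a type and less RNA per cell cannot be told apart.

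**Figure D1:**
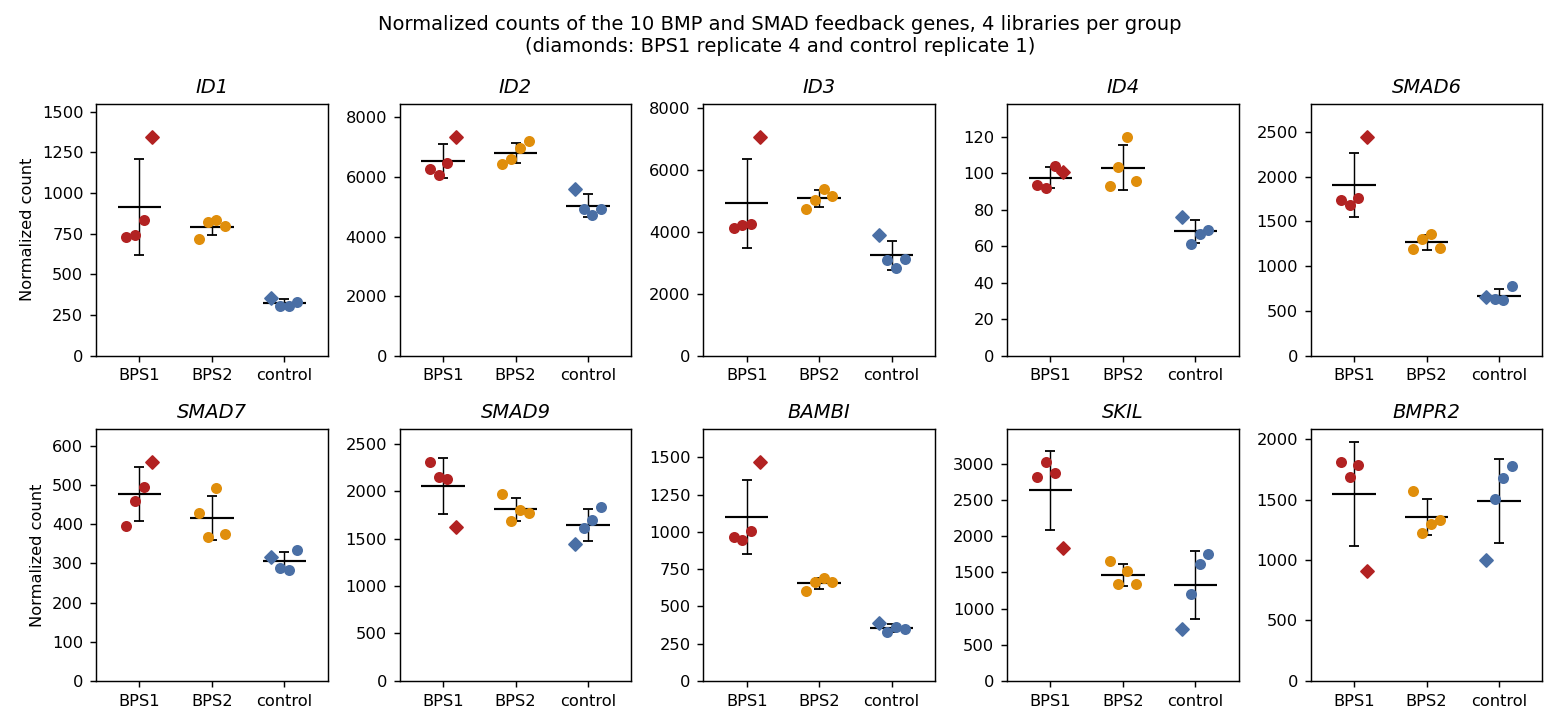
Normalized counts (vertical axes, each from 0) of the 10 genes in BPS1, BPS2 and control; points are libraries, diamonds mark BPS1 replicate 4 and control replicate 1, and lines with bars are the mean ± SD of 4 libraries. ID1, ID2, ID3, ID4, SMAD6, SMAD7 and BAMBI lie above every control library in all 8 libraries given BPS1 or BPS2, whereas BMPR2 does not separate the groups.

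The 4 ID genes encode helix-loop-helix proteins without a DNA-binding region, which pair with E proteins and keep bHLH factors off DNA. In control libraries, per kilobase of annotated exon, the mean level was highest for ID2 (2286 normalized counts per kb) and ID3 (1799), then ID1 (262), and lowest for ID4 (29.1). The largest change was that of ID1, which lies below ID2 and ID3 in level.

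ID1 (ENSG00000125968, chr20:31605283-31606515, plus strand) held 729, 744, 831 and 1346 in the BPS1 libraries, 716, 818, 831 and 798 in the BPS2 libraries and 351, 306, 306 and 330.1 in the control libraries. Every BPS1 and BPS2 library exceeded the highest control library, and BPS1 replicate 4 lay well above the other BPS1 libraries. The means were 912 ± 293 in BPS1, 791 ± 51.3 in BPS2 and 323 ± 21.6 in control (SD, n = 4 each). The BPS1 mean was 2.82 times the control mean (log2 fold change 1.45 ± 0.16 SE, limma adjusted p = 1.60e-04). With BPS2 the difference was 1.29 ± 0.16 (limma adjusted p = 0.00171). BPS2 and BPS1 overlapped, and their difference of -0.16 ± 0.16 was not called (adjusted p = 0.692). Without BPS1 replicate 4 the rise with BPS1 was 1.25, still called.

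ID2 (ENSG00000115738, chr2:8678845-8684453, plus strand) is the most abundant of the 4 and has been tied to MYCN in neuroblastoma. It held 6256, 6079.9, 6462 and 7361 in the BPS1 libraries, 6447, 6610.1, 6985 and 7196 in the BPS2 libraries and 5594, 4916, 4735 and 4919 in the control libraries. All BPS1 and BPS2 libraries lay above all control libraries, by a smaller margin than for ID1. The log2 fold change was 0.37 ± 0.08 with BPS1 (adjusted p = 0.00896) and 0.44 ± 0.08 with BPS2 (adjusted p = 0.0141). The BPS2 call was lost without BPS2 replicate 3 or 4 or control replicate 2 or 3 (adjusted p = 0.0555 to 0.0617).

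ID3 (ENSG00000117318, chr1:23557918-23559794, minus strand) held 4113, 4232, 4253 and 7077 in the BPS1 libraries, 4747, 5037, 5376 and 5140.1 in the BPS2 libraries and 3885, 3091, 2828 and 3128 in the control libraries. BPS1 replicate 4 was again far above its group, and control replicate 1 was the highest control, yet the groups given BPS1 or BPS2 did not overlap control. Its rise with BPS1 was 0.58 ± 0.15 (adjusted p = 0.0363), and the call, though not the direction, was lost on omission of any of 7 single libraries. The log2 fold change was then 0.51 to 0.63, with an adjusted p of up to 0.104 without control replicate 3. The difference with BPS2, 0.66 ± 0.15, was not called (adjusted p = 0.0641). It was called without BPS1 replicate 4, a library that enters this comparison through the shared estimate of spread alone (adjusted p = 0.00152).

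ID4 (ENSG00000172201, chr6:19837386-19840684, plus strand) was the one member in whole reads in all 12 libraries. Those reads numbered 99, 98, 107 and 92 in BPS1, 94, 105, 116 and 94 in BPS2 and 75, 62, 68 and 66 in control. The highest count, 116 in BPS2 replicate 3, carries a 95% exact Poisson interval of 95.9 to 139, and the highest control count, 75, one of 59.0 to 94.0. The intervals of the other 7 BPS1 and BPS2 counts, with lower limits of 74.2 to 87.7, overlap that of 75. These intervals cover counting error only. As normalized counts, ID4 held 93.7, 92.1, 104 and 101 in the BPS1 libraries, 93.1, 103, 120.3 and 95.9 in the BPS2 libraries and 76.3, 61.0, 66.5 and 69.1 in the control libraries. Both groups lay above control, with log2 fold changes of 0.51 ± 0.12 with BPS1 (adjusted p = 0.0202) and 0.59 ± 0.12 with BPS2 (adjusted p = 0.0358). The BPS1 call was lost without BPS1 replicate 3, control replicate 2 or control replicate 3 (adjusted p up to 0.0650). The BPS2 call was lost under 13 of 24 other settings, most of them omissions of 1 library, with an adjusted p of up to 0.129 without BPS2 replicate 3.

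ID2 and ID4 each share bases with a gene on the opposite strand, ID2-AS1 (3019 bases) and AL022068.1 (1695 bases). The kit marks strand, but the strand setting of the counting is not stated in the sources used here. ID2-AS1 averaged 57.7 in BPS1, 52.3 in BPS2 and 34.6 in control. AL022068.1 averaged 31.8 in BPS1, 49.3 in BPS2 and 25.0 in control. ID2-AS1 was far below ID2, whereas AL022068.1 was closer to ID4, which averaged 97.6 in BPS1, 103 in BPS2 and 68.2 in control. The part of AL022068.1 in the ID4 values was not tested.

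SMAD6 and SMAD7 are the inhibitory SMADs, which occupy receptors or SMAD partners without passing the signal on, SMAD6 mainly in the BMP branch and SMAD7 in both the BMP and the TGF-beta branch. Both were called higher with BPS1, and SMAD6 with BPS2 as well. Per kilobase, control libraries held 78.2 normalized counts of SMAD6 and 60.7 of SMAD7. With BPS1 these levels were 223 per kb for SMAD6 and 94.8 per kb for SMAD7.

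SMAD6 (ENSG00000137834, chr15:66702228-66782848, plus strand) held 1740.0, 1681, 1755 and 2447 in the BPS1 libraries, 1189, 1303, 1361 and 1203 in the BPS2 libraries and 648, 632, 623 and 775 in the control libraries. The 3 groups formed 3 separate bands, with BPS1 highest and BPS2 between BPS1 and control. The means were 1906 ± 362 in BPS1, 1264 ± 82.2 in BPS2 and 669.5 ± 71.3 in control (SD, n = 4 each). SMAD6 rose by 1.50 ± 0.12 on the log2 scale with BPS1 (limma adjusted p = 9.55e-06) and by 0.92 ± 0.12 with BPS2 (adjusted p = 0.00220). BPS2 against BPS1 gave a log2 fold change of -0.58 ± 0.12 (adjusted p = 0.0162), the BPS1 mean being 1.51 times the BPS2 mean. That last call was lost without BPS2 replicate 1 (adjusted p = 0.0540) or BPS2 replicate 4 (0.0550), and held without BPS1 replicate 4 at -0.45.

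SMAD7 (ENSG00000101665, chr18:48919853-48952052, minus strand) held 394, 459, 496 and 559 in the BPS1 libraries, 429, 369, 491 and 376 in the BPS2 libraries and 315, 288, 284 and 335 in the control libraries. Both groups lay above all control libraries but overlapped each other. The rise with BPS1 was 0.63 ± 0.12 (adjusted p = 0.00727). With BPS2 the difference was 0.44 ± 0.12 and was not called (adjusted p = 0.141), although no BPS2 library reached down to control.

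SMAD9 (ENSG00000120693, chr13:36844831-36920765, minus strand), a receptor-activated SMAD of the BMP branch, held 2309, 2146, 2133 and 1627 in the BPS1 libraries, 1969, 1691, 1806 and 1767 in the BPS2 libraries and 1439, 1611, 1698 and 1833 in the control libraries. The groups overlapped: BPS1 replicate 4 was the lowest BPS1 library, and control replicate 1 the lowest of all 12. The log2 fold change was 0.31 ± 0.11 with BPS1 (adjusted p = 0.102) and 0.14 ± 0.11 with BPS2 (adjusted p = 0.703), and neither was called. Without BPS1 replicate 4 the BPS1 difference was 0.42 and was called (adjusted p = 0.00729). Of the 3 SMADs here, SMAD9 had the highest level in control, 287 normalized counts per kb.

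BAMBI, SKIL and BMPR2 act at the receptor or beside the SMADs. BAMBI resembles a type I receptor without a kinase and blocks receptor complexes. SKIL (SnoN) is a co-repressor that binds SMADs and is itself a TGF-beta target. BMPR2 is the type II receptor kinase for BMPs. BAMBI rose with both oligonucleotides, SKIL was called with BPS1, and BMPR2 was called in no comparison.

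BAMBI (ENSG00000095739, chr10:28677342-28682939, plus strand) held 965, 948, 1008 and 1469 in the BPS1 libraries, 602, 660.3, 687 and 666 in the BPS2 libraries and 392, 329.5, 361 and 348 in the control libraries. As for SMAD6, the groups formed 3 bands in the order BPS1, BPS2, control, and BPS1 replicate 4 was far above its group. Means were 1098 ± 249 in BPS1, 654 ± 36.4 in BPS2 and 357 ± 26.1 in control (SD, n = 4 each). BAMBI had the largest log2 fold change of the 10 with BPS1, 1.59 ± 0.13 (limma adjusted p = 9.72e-06), and 0.87 ± 0.13 with BPS2 (adjusted p = 0.00440). BPS2 against BPS1 gave -0.72 ± 0.13 (adjusted p = 0.00642), the BPS1 mean being 1.68 times the BPS2 mean. All 3 calls held under each of the 24 other settings, with ranges of 1.45 to 1.66 for BPS1, 0.83 to 0.92 for BPS2 and -0.79 to -0.57 between them.

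SKIL (ENSG00000136603, chr3:170357678-170396835, plus strand) held 2818, 3029.7, 2879 and 1832 in the BPS1 libraries, 1659, 1346, 1522 and 1337 in the BPS2 libraries and 712, 1206, 1615 and 1758 in the control libraries. Here the library order was turned round: BPS1 replicate 4 was the lowest of its group and control replicate 1 the lowest of all. Even so, each BPS1 library exceeded every control and every BPS2 library, while BPS2 lay within the control range. Against control, the log2 fold change was 1.05 ± 0.24 with BPS1 (adjusted p = 0.0177), and this call was lost without BPS1 replicate 2 (adjusted p = 0.0536) or BPS1 replicate 3 (0.0527). With BPS2 it was 0.22 ± 0.24 (adjusted p = 0.7999), and -0.046 without control replicate 1. BPS2 against BPS1 gave -0.83 ± 0.24 and was not called (adjusted p = 0.0837). Without BPS1 replicate 4 that difference was -0.99 and was called (adjusted p = 0.0235). No BPS2 library of SMAD6, BAMBI or SKIL overlapped BPS1, whereas 5.80% of all genes tested lay wholly lower in BPS2 than in BPS1.

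BMPR2 (ENSG00000204217, chr2:202376936-202567751, plus strand) held 1811, 1687, 1786 and 908 in the BPS1 libraries, 1573, 1219.8, 1298 and 1331 in the BPS2 libraries and 996, 1508, 1677 and 1778 in the control libraries. BPS1 replicate 4 and control replicate 1 were the lowest libraries of all 12, and the remaining control libraries overlapped both BPS1 and BPS2. The other 3 BPS1 libraries lay above all BPS2 libraries. The log2 fold change was 0.04 ± 0.22 with BPS1 (adjusted p = 0.949) and -0.11 ± 0.22 with BPS2 (adjusted p = 0.905). The sign of the BPS1 difference changed with the libraries kept, between -0.15 without control replicate 1 and 0.27 without BPS1 replicate 4.

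**Figure D2:**
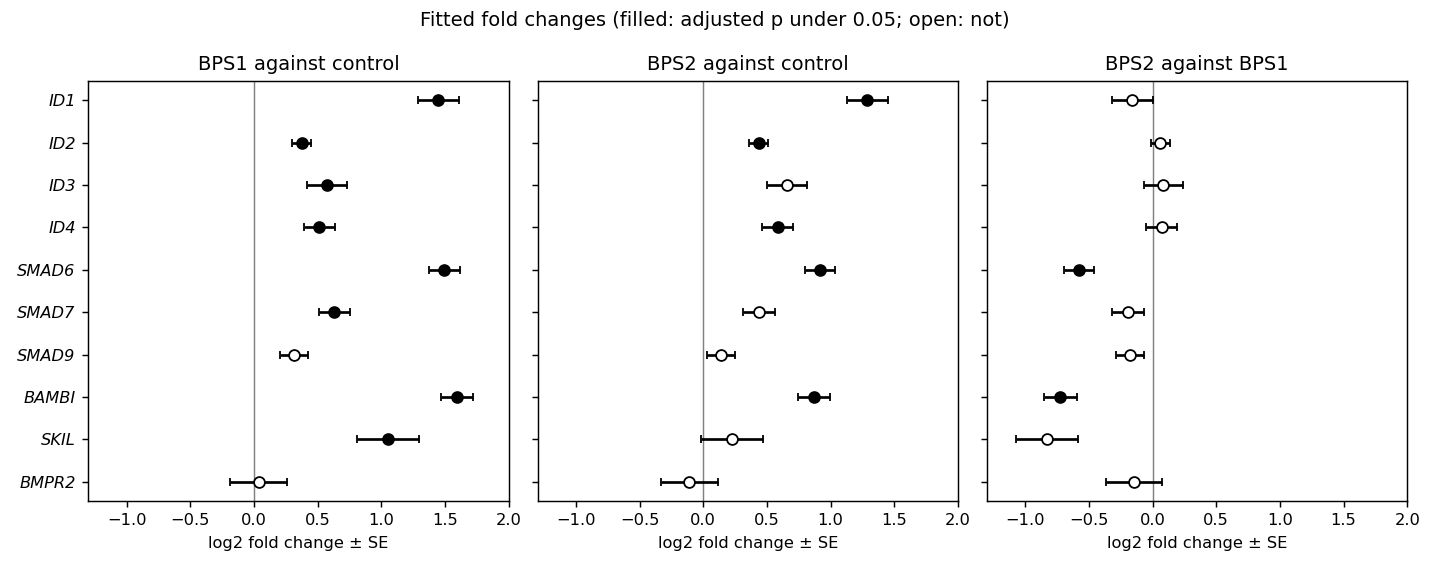
Fitted log2 fold change (horizontal axes, log2 of value + 1) with its standard error for the 10 genes for each group against control (left and middle) and BPS2 against BPS1 (right); filled points have an adjusted p under 0.05 over all genes tested. BAMBI and SMAD6 lie at 1.59 and 1.50 with BPS1 and at 0.87 and 0.92 with BPS2, and ID1 at 1.45 and 1.29; SMAD6 and BAMBI carry the filled points of BPS2 against BPS1.

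In the 2 libraries that stood apart, SKIL, BMPR2 and SMAD9 (46.7% G and C) were low for their group. ID4 (47.0%) and ID2 (47.7%), also below the median of protein-coding genes, were not. They differed by 0.06 and 0.23 in BPS1 replicate 4 and by 0.22 and 0.20 in control replicate 1. In BPS1 replicate 4, members with transcripts rich in G and C were high. Over 14251 protein-coding genes, taken as a description since genes are not independent, a library's deviation rose with the G and C content of the transcripts most in BPS1 replicate 4 (Spearman's rho 0.348) and control replicate 1 (0.227). BPS2 replicates 2, 3 and 4 had 0.171, 0.210 and 0.122, and the other libraries -0.220 to -0.0956. The transcripts of SMAD6 (60.7%), ID1 (58.1%), ID3 (56.6%) and SMAD7 (56.6%) were rich in G and C, and those of SKIL (39.7%) and BMPR2 (38.7%) poor, beside a median of 50.0% and quartiles of 44.1% and 57.4% over protein-coding genes tested. BPS1 replicate 4 exceeded the mean of the other BPS1 libraries by 0.81 on the log2 scale for ID1, 0.75 for ID3, 0.59 for BAMBI and 0.50 for SMAD6. For SMAD9, SKIL and BMPR2 the same difference was -0.43, -0.67 and -0.95. In control replicate 1 it was -1.08 for SKIL and -0.73 for BMPR2, and between -0.25 and 0.37 for the other members.

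**Figure D3:**
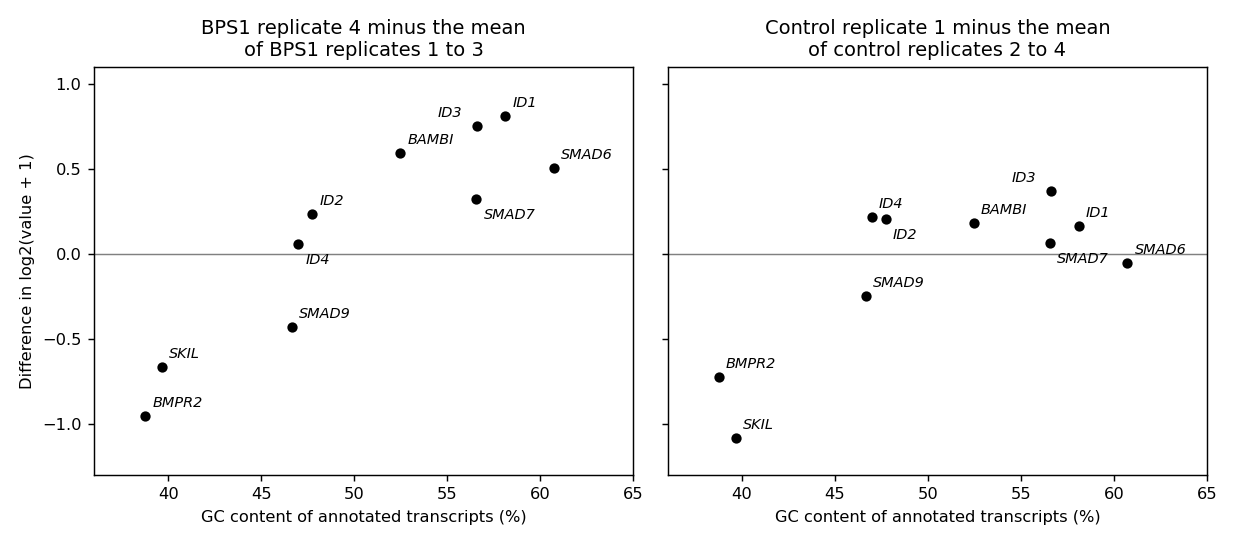
Difference in log2(value + 1) between BPS1 replicate 4 and the mean of the other BPS1 libraries (left), and between control replicate 1 and the mean of the other control libraries (right), against the G and C content of each gene's annotated transcripts in percent; each point is 1 of the 10 genes. On the left, ID1 and ID3 lie highest, at 0.81 and 0.75, and BMPR2 lowest, at -0.95; on the right, SKIL and BMPR2 lie lowest, at -1.08 and -0.73.

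When a trend with G and C content was taken out of each library, ID1, SMAD6 and BAMBI kept log2 fold changes of 1.42, 1.44 and 1.60 with BPS1 and 1.26, 0.87 and 0.87 with BPS2, all called. That correction called 9 members with BPS1, SMAD9 added (0.32, adjusted p = 0.0468), and 6 with BPS2, ID3 added (0.64, adjusted p = 0.0226). Of all 20454 genes tested, 2052 were then called with BPS1 and 332 with BPS2, beside 1760 and 247 in the main fit. It also called SKIL lower in BPS2 than in BPS1 (-0.83, adjusted p = 0.0368). Without both libraries that stood apart, 9 members were called higher with BPS1 and 7 with BPS2. Calls rose over all genes too: 1297 were then called higher with BPS1 and 1152 with BPS2, beside 877 and 168 in the main fit. Between BPS2 and BPS1, 6 members were then called: SMAD6, BAMBI, SKIL, SMAD9 and BMPR2 lower and ID3 higher in BPS2. Of all genes tested, 3499 were called in that comparison, beside 803 in the main fit.

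Genes with the profile most like that of ID1 were sought among 13973 other genes with a mean of at least 50. Likeness was the root mean square difference, over the 12 libraries, between log2 profiles that each had the control mean subtracted. The nearest 5 were MAGEH1 (0.149), VGF (0.175), SMAD6 (0.243), ETV4 (0.256) and BAMBI (0.265). VGF is a neuropeptide precursor and ETV4 an ETS transcription factor. MAGEH1 averaged 121 in BPS1, 115 in BPS2 and 43.3 in control, and VGF averaged 531 in BPS1, 437 in BPS2 and 195 in control. For SMAD6, BAMBI was the nearest of all (0.121), before ISLR (0.166), SPRY4 (0.208), PLXNA2 (0.230) and VGF (0.236), and ID1 ranked sixth (0.243). SPRY4 inhibits receptor tyrosine kinase signalling and PLXNA2 is a semaphorin receptor. The remaining members were further from ID1: ID3 ranked 101, SMAD7 156, ID4 165, ID2 367, SKIL 430, SMAD9 2079 and BMPR2 10369. These ranks describe the same libraries as the fold changes.

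The wider pathway was read from lists of its other genes, of which 93 were tested. With BPS1, 16 of the 93 were called higher and 4 lower, with a median log2 fold change of 0.09. With BPS2, 5 were called higher and 0 lower, with a median of 0.07. Between BPS2 and BPS1, 3 were called higher and 3 lower, with a median of -0.05. These shares stand beside 8.60%, 1.21% and 3.93% of all genes called in the 3 comparisons.

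Few ligands, and none of the SMADs that pass the signal on, were called. Of 17 BMP and GDF ligands, 6 had enough signal to test and none was called in any comparison. BMP7, named after its values were seen as a ligand with high counts, averaged 3912 ± 454 in BPS1, 3814 ± 229 in BPS2 and 3805 ± 303 in control (SD, n = 4 each). Of 9 TGF-beta, activin and nodal ligands tested, GDF11 and TGFB2 were called higher with BPS1 and none with BPS2. The TGFB2 call (0.74, adjusted p = 0.0204) was lost under 6 of 24 other settings. GDF11, a ligand of the activin branch, averaged 2601 in BPS1, 1577 in BPS2 and 1755 in control. Its log2 fold change was 0.57 ± 0.08 with BPS1 (adjusted p = 0.00122), -0.16 ± 0.08 with BPS2 (0.532) and -0.72 ± 0.08 for BPS2 against BPS1 (3.90e-04). None of SMAD1, SMAD2, SMAD3, SMAD4 and SMAD5 was called in any comparison, and their median log2 fold change was 0.016 with BPS1 and -0.032 with BPS2.

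Of 14 receptors and co-receptors tested, 2 were called higher and 1 lower with BPS1, and 1 higher with BPS2. ENG (endoglin), a co-receptor for BMP and TGF-beta ligands, was the one called in both. Its means were 771 ± 141 in BPS1, 624 ± 80.8 in BPS2 and 361 ± 26.3 in control (SD, n = 4 each), with log2 fold changes of 1.08 ± 0.13 (adjusted p = 2.76e-04) for BPS1 and 0.78 ± 0.13 (adjusted p = 0.00997) for BPS2. With BPS1, the type I receptor ACVR1 was also called, at 0.40 (adjusted p = 0.0344), as was the co-receptor RGMA, at -0.38 (adjusted p = 0.0407). Each of these 2 calls was lost under some omissions of 1 library.

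Among 14 intracellular negative regulators, PMEPA1 and FKBP1A were the ones called with BPS1 and none was called with BPS2. PMEPA1, which binds SMADs and is a TGF-beta target, was at 0.52 (adjusted p = 0.00572). FKBP1A, which binds type I receptors and holds them inactive, averaged 4190.1 in BPS1, 5552 in BPS2 and 5679 in control. It fell by 0.44 ± 0.06 on the log2 scale with BPS1 (adjusted p = 4.66e-04) and was 0.41 ± 0.06 higher in BPS2 than in BPS1 (adjusted p = 0.00135).

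Of 14 other BMP response genes tested, 6 were called higher and 0 lower with BPS1, and 1 higher with BPS2. The median log2 fold change of this list was 0.56 with BPS1 and 0.33 with BPS2. HEY1, a Notch and BMP target that encodes a repressor, averaged 777 in BPS1, 544 in BPS2 and 436 in control, and rose by 0.83 ± 0.10 with BPS1 (adjusted p = 3.56e-04). It was the one gene of the list called between the oligonucleotides, lower in BPS2 (-0.51 ± 0.10, adjusted p = 0.0146), a call lost without BPS2 replicate 2 (0.0551). SNAI2, a transcriptional repressor of the neural crest, was at 1.42 ± 0.25 with BPS1 (adjusted p = 0.00365), and ZNF423, a zinc-finger partner of SMADs, at 0.60 ± 0.11 (adjusted p = 0.00555). The other 3 called with BPS1 were GATA2, GATA6 and MSX2, named after their values were seen. Under the 24 other settings the GATA2 call was lost in 15 and the MSX2 call in 11. MSX2, a homeobox target of BMPs, was also the gene called with BPS2 (0.71 ± 0.14, adjusted p = 0.0304), a call lost under 9 of 24 other settings. Without the 2 libraries that stood apart, the list had 6 called higher with BPS1 and 3 with BPS2.

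Of 10 TGF-beta and SMAD3 response genes tested, FN1, PMEPA1 and SNAI1 were called higher and CDKN1A lower with BPS1, and COL1A1 was called higher with BPS2. The FN1 call was lost under 5 of 24 other settings. CDKN1A, a cyclin-dependent kinase inhibitor, averaged 1077 in BPS1, 1922 in BPS2 and 1634 in control. It fell by 0.60 ± 0.09 on the log2 scale with BPS1 (adjusted p = 9.30e-04), and BPS2 lay 0.83 ± 0.09 above BPS1 (adjusted p = 1.47e-04). SNAI1 stood at 0.83 ± 0.12 with BPS1 (adjusted p = 0.00101), and COL1A1, a fibrillar collagen, at 0.46 ± 0.07 with BPS2 (adjusted p = 0.00706).

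The partners that ID proteins act on, E proteins and bHLH factors, moved in both directions. Among the 12 tested, HES1 was called higher and HAND2 lower with BPS1, and HES1 was called higher with BPS2. HES1, a Notch target and repressor, averaged 108 ± 28.0 in BPS1, 68.9 ± 14.3 in BPS2 and 28.1 ± 7.40 in control (SD, n = 4 each). Its log2 fold changes were 1.90 ± 0.22 with BPS1 (adjusted p = 1.94e-04) and 1.28 ± 0.22 with BPS2 (adjusted p = 0.0118). HAND2, a bHLH factor of the sympathetic lineage that BMPs induce in the embryo, averaged 11702 in BPS1, 15285 in BPS2 and 17292 in control. It fell by 0.56 ± 0.07 with BPS1 (adjusted p = 2.08e-04), while -0.18 ± 0.07 with BPS2 was not called (adjusted p = 0.297).

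**Figure D4:**
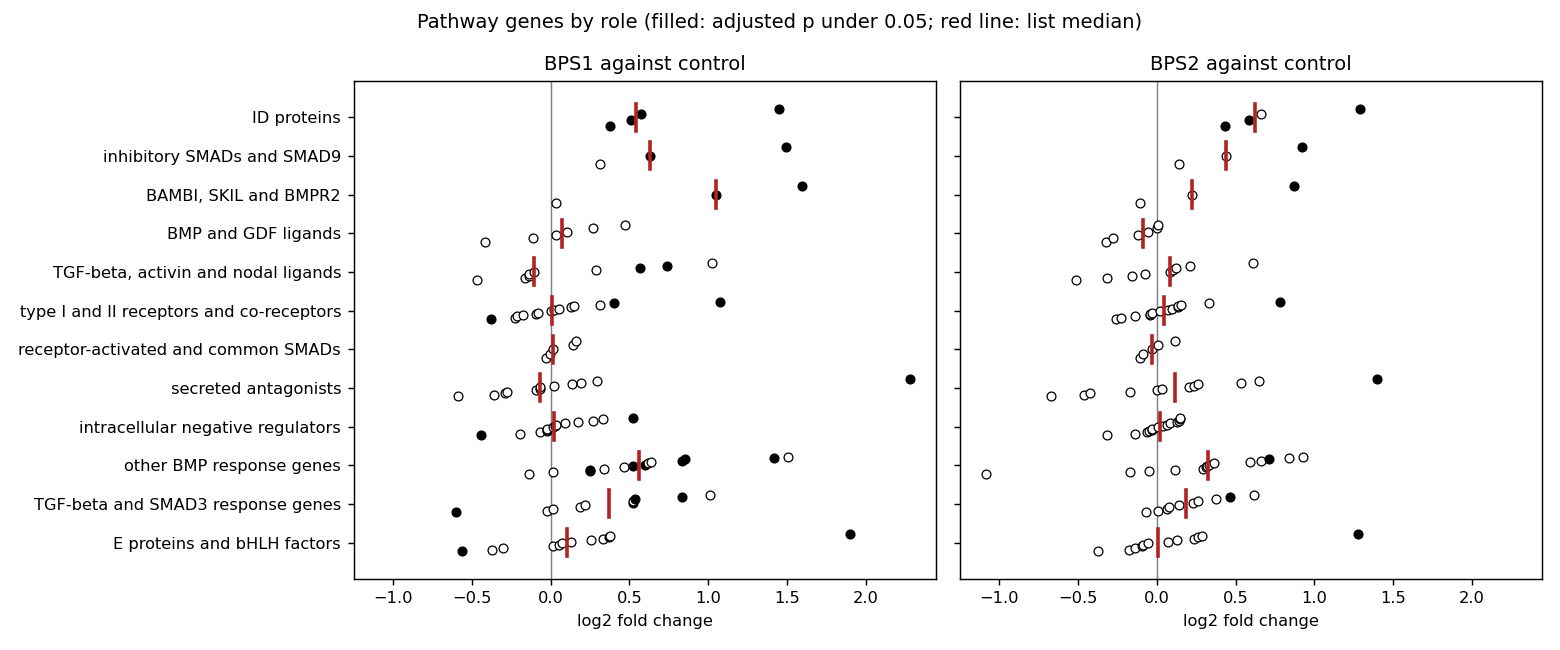
Log2 fold change (horizontal axes) of each tested gene in 12 lists, 3 of members and 9 of other pathway genes, in BPS1 against control (left) and BPS2 against control (right); filled points have an adjusted p under 0.05 and red lines are list medians. The list of other BMP response genes has a median of 0.56 with BPS1, above the other 8 lists of pathway genes that are not members.

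Markers of the cells themselves were read beside these results. All 10 adrenergic neuroblastoma markers were tested, and their summed level was 196621 to 252935 in BPS1, 233859 to 249137 in BPS2 and 262571 to 314531 in control libraries. The highest means in that sum were those of CHGA (112868 in control) and MYCN (86629 in control). With BPS1, 6 of the 10 were called lower, CHGA, DBH, HAND2, ISL1 and STMN2 among them, and with BPS2 2 (ISL1 and STMN2). Of all 20454 genes tested, 883 were called lower with BPS1 and 79 with BPS2. PHOX2A, GATA3, TH and MYCN were called in no comparison. The 8 fibroblast or mesenchymal markers summed to 4726 to 5983 in BPS1, 4403 to 5107 in BPS2 and 4370.2 to 5723 in control, and COL1A1 with BPS2 was the one call. The 6 endothelial markers summed to 201 to 299 in BPS1, 147 to 206 in BPS2 and 171 to 223 in control, with 4 tested and none called. Glial markers, 6 in all, summed to 92.2 to 127 in BPS1, 97.8 to 127 in BPS2 and 93.4 to 144 in control, with 3 tested and none called. The 6 blood markers summed to 13.3 to 30.6 in BPS1, 17.2 to 31.4 in BPS2 and 17.0 to 27.9 in control, and none was high enough to test. No marker was at 0 in all libraries. The part of the lower adrenergic markers in the rise of ID1, SMAD6 and BAMBI was not tested.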

How the data were processed

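The 12 KELLY libraries were made from ribosome-depleted total RNA by a stranded kit and sequenced as 100-base single-end reads, per the labels' protocols. Salmon 0.8.2, FastQC 0.11.7, DESeq2 without a version and GRCh38 appear in the submitters' processing notes; the annotation used is not stated there. Deposited by the authors was 1 normalized count per gene and library (a signal on a linear scale). Of the tested genes, 23.0% had values that were whole multiples, within 0.01, of the value of 1 read in all libraries. No count model was run for that reason, and changes are on the log2(value + 1) scale, which understates those of low genes.

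Genes with at least 10 in at least 4 libraries were fitted with limma 3.58.1 (R 4.3.3; group as the only term, trended variance), with two-sided Benjamini-Hochberg adjusted p over 20454 genes, a threshold of 0.05, and n = 4 per group. The fit was tested on simulated data. In each comparison 24 other settings changed the pseudocount, filter, scaling, spread, library weights, replicate block, groups fitted, G and C trend (658 tested genes had no value and were left as they were) and the libraries kept. Members, lists and settings were chosen with earlier results of these data known. All members were named, with NEAT1; from each list up to 3 genes with the smallest p (1 where none passed), and the 5 nearest profiles of ID1 and SMAD6. Some genes of the lists are not reported here. Positions and base composition come from GENCODE release 29 (GRCh38), promoters from RefSeq. The pseudocount, the number of libraries and their spread limit the precision.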

Additional observations from a re-analysis of the deposited data

Results flagged for a closer look

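In groups of 4 libraries, the library at an extreme was set apart by Dixon's test for 6 of 33 groups of values of the 10 genes and NEAT1; chance sets apart about 1 in 20. In 5 of the 6 the library was BPS1 replicate 4. It held 1346 normalized counts of ID1, 7077 of ID3, 2447 of SMAD6 and 1469 of BAMBI, each the highest of its group, and 908 of BMPR2, the lowest. The remaining one was control replicate 4 for SMAD6, at 775, the highest control library. BPS1 replicate 4 also had the strongest relation of deviation to G and C content (Spearman's rho 0.348 across genes); the part of that relation in the 5 values was not tested. With BPS1 against control, ID1, ID3, SMAD6 and BAMBI remained called without that library, at 1.25, 0.39, 1.37 and 1.45.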

How the results depend on the processing

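The direction and call of ID1, SMAD6 and BAMBI with both oligonucleotides, of ID2 and SMAD7 with BPS1, and of BAMBI in BPS2 against BPS1 held under all 24 other settings. Members called with BPS1 numbered 8, and 5 when only the 2 groups were fitted; omission of single libraries gave 5 to 9. With BPS2, 5 members were called, and omissions gave 3 to 6. Between BPS2 and BPS1, 2 were called, 6 with library weights, 6 without control replicate 1 and BPS1 replicate 4 together, and 1 to 3 with omissions. Genes called with BPS1 numbered 1760 (3382 with library weights, 2774 without both libraries, 907 with only the 2 groups, 1102 to 2372 with omissions), with BPS2 247 (1296 with library weights, 1910 without both libraries, 114 to 536 with omissions), and in BPS2 against BPS1 803 (3626 with library weights, 3499 without both libraries, 477 to 1764 with omissions). The cause was not tested.

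Same-numbered libraries did not deviate together (correlations of -0.272 to 0.103). This does not settle whether the numbers pair the samples, since a small shared effect could go unseen. BPS1 replicate 4 and control replicate 1, which stood apart, had a correlation of 0.424. With the replicate number as a block, genes called were 1067 with BPS1, 118 with BPS2 and 447 between them. Members called were then 6 with BPS1, 3 with BPS2 and 2 between them. Signs reversed for uncalled values: BMPR2 with BPS1 (-0.06, -0.02, -0.05 and -0.15 without BPS1 replicates 1, 2 and 3 or control replicate 1, in a range of -0.15 to 0.27), SKIL with BPS2 (-0.046 without control replicate 1, alone or with BPS1 replicate 4, in a range of -0.046 to 0.39), ID1 in BPS2 against BPS1 (0.019 with library weights and 0.042 without BPS1 replicate 4, alone or with control replicate 1, in a range of -0.25 to 0.042) and ID4 there (-0.0022 without BPS2 replicate 3, in a range of -0.0022 to 0.12). NEAT1 with BPS2 ranged from -0.76 to -0.66 with omissions and was uncalled in 7 of them (adjusted p up to 0.0899). ID3, ID4 and MSX2 lie near the threshold, and the shallow counts of ID4 limit its precision.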
